A study of Mus musculus with 24 samples.

Results

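The 10 genes described here belong to the circadian clock: Per1, Per2, Per3, Ciart, Dbp, Tef, Nr1d1, Nr1d2, Bhlhe40 and Arntl. Every probe annotated to one of these symbols was taken, which gave 19 of the 45281 probes on the array. Of these, 17 were bright enough to be tested, among 21788 probes tested in all, and each of the 10 genes kept at least 1 probe. Expression was measured with Illumina bead arrays in the gastrocnemius-soleus complex of the hind limb of female mice aged 5 weeks, 6 arrays in each of 4 groups. Transgenic mice, labelled α7Tg and overexpressing the alpha7BX2 integrin, and wild-type mice either ran or stayed at rest. The integrin is a laminin receptor subunit of the muscle fibre surface. The run was a single bout of 40 min downhill at 20 degrees and 17 m/min, reached from 10 m/min over a warm-up of 2 min, and the muscle was taken 3 h after it. The labels write the 4 groups as TG_EX, TG_NE, WT_EX and WT_NE, called transgenic run, transgenic rest, wild-type run and wild-type rest here. All mice were kept on a light-dark cycle with free access to chow. The labels state neither the clock time of the run and of the dissection, nor the promoter that drives the transgene, nor the background strain.

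In the mammalian clock, BMAL1 (the protein of Arntl) pairs with CLOCK and activates genes through E-boxes. Among these genes are the Per genes, Ciart, Dbp, Tef, Nr1d1, Nr1d2 and Bhlhe40. The PER proteins, acting with cryptochromes, then repress BMAL1 and CLOCK, while the REV-ERB receptors made from Nr1d1 and Nr1d2 repress Arntl itself. As a result, Arntl transcripts peak about opposite in the day to those of the other 9 genes. Skeletal muscle runs such a clock of its own, and Per1 is also induced directly by glucocorticoids. As no clock time is stated, a group difference in these genes cannot be told apart from a difference in the time of dissection.

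The median intensity of an array lay between 105 and 138, and 40.2% to 46.2% of probes were detected. As most probes were not detected, this median describes probes near background and not the total signal. The tissue label fitted its markers, since all 10 fast muscle fibre genes of the marker list were detected on all 24 arrays, with array means of 14.65 to 14.91 on the log2 scale. The arrays also differed within every group in slow fibre genes and in markers of other cells. The mean of the 11 measured lymphocyte markers ranged from 5.10 to 10.11 in transgenic run, 5.18 to 9.01 in transgenic rest, 5.13 to 9.80 in wild-type run and 5.10 to 9.59 in wild-type rest muscle. Only 2 of those 11 markers were detected on every array. The mean of the 13 slow fibre genes ranged from 11.98 to 13.36, 11.71 to 13.40, 12.19 to 13.54 and 11.67 to 13.42 in the same groups. The mean of the 8 neutrophil markers ranged from 5.29 to 8.54, 4.90 to 6.67, 5.60 to 8.35 and 5.52 to 9.01. In bulk muscle, fewer cells of a type and less RNA per cell cannot be told apart. The Itga7 probes differed between transgenic rest and wild-type rest by 0.22 (SE 0.31) and 0.33 (SE 0.33) on the log2 scale. No label or file says whether the transgene's RNA binds these probes, so they do not check the genotype labels.

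Promoter windows show which clock elements stand next to the start sites of these genes. RefSeq windows of 250 bases before to 50 bases after the start (GRCm38.p6) were at hand for 8 of the 10 genes, 11 windows in all. They are printed for a repressor gene with 1 E-box, for a gene with several E-boxes, for a gene with D-boxes and for Arntl. Capitals mark the E-box CACGTG, the D-box TTATGTAA or TTACGTAA, and AGGTCA, the half-site read by REV-ERB and ROR receptors, each on either strand.
Per1, chr11:69098699-69098998, plus strand: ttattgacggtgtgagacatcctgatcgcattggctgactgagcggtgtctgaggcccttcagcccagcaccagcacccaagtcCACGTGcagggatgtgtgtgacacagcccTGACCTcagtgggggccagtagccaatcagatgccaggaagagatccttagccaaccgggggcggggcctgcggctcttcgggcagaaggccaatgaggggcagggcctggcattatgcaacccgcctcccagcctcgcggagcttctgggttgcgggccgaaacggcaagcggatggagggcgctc
Ciart, chr3:95882179-95882478, minus strand: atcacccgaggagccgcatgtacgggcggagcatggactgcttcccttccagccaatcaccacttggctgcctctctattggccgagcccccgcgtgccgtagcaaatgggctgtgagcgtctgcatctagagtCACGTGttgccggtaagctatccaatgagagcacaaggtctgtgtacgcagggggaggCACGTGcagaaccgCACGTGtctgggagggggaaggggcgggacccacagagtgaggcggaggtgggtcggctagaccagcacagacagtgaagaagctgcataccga
Per3, chr4:151044616-151044915, minus strand: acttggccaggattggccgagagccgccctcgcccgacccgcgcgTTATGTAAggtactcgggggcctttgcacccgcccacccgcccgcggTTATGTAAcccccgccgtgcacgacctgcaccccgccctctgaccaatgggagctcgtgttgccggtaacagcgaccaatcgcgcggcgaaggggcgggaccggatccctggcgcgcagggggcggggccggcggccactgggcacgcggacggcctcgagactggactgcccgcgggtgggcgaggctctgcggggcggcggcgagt
Arntl, chr7:113207261-113207560, plus strand: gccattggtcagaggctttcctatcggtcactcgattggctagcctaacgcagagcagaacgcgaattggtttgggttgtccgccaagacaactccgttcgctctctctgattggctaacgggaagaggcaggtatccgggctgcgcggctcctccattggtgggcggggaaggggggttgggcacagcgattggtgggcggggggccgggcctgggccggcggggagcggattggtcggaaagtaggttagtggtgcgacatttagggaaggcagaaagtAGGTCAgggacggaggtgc
The Per1 window held an E-box 166 bases before the start and a half-site 137 bases before it. The Ciart window held E-boxes 116, 58 and 44 bases before the start. The Per3 window held D-boxes, the element bound by the PAR bZIP proteins DBP and TEF, 205 and 158 bases before the start. The Arntl window held a half-site 31 bases after the start. Tef carried an E-box in both of its windows, 127 and 138 bases before the start, and Nr1d2 a half-site 77 bases before it. The other windows, of Dbp, Nr1d1, the second start of Per1 and the first of Arntl, held none of these elements. In all, the E-box stood in 4 of the 11 windows, the half-site in 3 and a D-box in 1. Among all 32544 distinct windows, 7.17% held the E-box, 1.05% a D-box and 16.2% the half-site. The cAMP response element TGACGTCA (1.8% of windows) was in 0 of the 11 windows. A match says only that these letters stand there. Sites outside the windows and variants of these letters were not searched, so a window without a match does not show that a gene lacks the element.

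In transgenic muscle at rest, 16 of the 17 clock probes averaged above wild-type rest and the remaining probe, that of Arntl, averaged below it. Among all tested probes, 51.3% averaged above. Per1 differed the most, by 1.14 and 1.04 on the log2 scale, and Ciart by 0.60 to 1.02, while Arntl differed by -0.77. None of these probes passed the test over all probes: limma called 0 of 17 at an adjusted p under 0.05, against 17 called probes of 21788 (0.0780%) and 629 at an unadjusted p under 0.05. Without adjustment, 8 clock probes lay above wild-type rest with a p under 0.05, against 1.80% of all probes, and Arntl lay below, against 1.08%. The 8 probes belonged to 4 genes, Per1, Per2, Dbp and Ciart, so they are not 8 independent readings. With only the brightest probe of each gene, 9 of 10 genes averaged above wild-type rest. The median difference was 0.36 over the 17 clock probes and 0.0050 over all probes.

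The Per genes encode the period proteins, the repressors of the negative arm. The brighter Per1 probe read 8.07 to 9.37 (median 8.74) in transgenic run muscle and 9.19 to 10.26 (median 9.47) in transgenic rest muscle, in log2 normalised intensity. In wild-type run muscle it read 7.92 to 8.68 (median 8.52), and in wild-type rest muscle 8.04 to 9.27 (median 8.17). Transgenic rest stood apart: 5 of 6 transgenic run arrays and 5 of 6 wild-type rest arrays lay below all of its arrays. At rest the genotypes differed by 1.14 (SE 0.24, 95% interval 0.65 to 1.64), a 2.21-fold ratio, with an adjusted p of 0.0810. Without wild-type rest array 11, the one at 9.27, this difference was 1.32 and passed the test (adjusted p = 0.0189). Of the 24 fits that each left out 1 array, this was the only one that called a clock probe at rest. Over these fits the difference ran from 0.999 to 1.32.

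The second Per1 probe read 6.35 to 7.74 (median 7.01) in transgenic run, 7.74 to 8.74 (median 7.88) in transgenic rest, 6.70 to 7.07 (median 6.82) in wild-type run and 6.24 to 7.56 (median 7.05) in wild-type rest muscle. Here the genotypes did not overlap at rest, which held for 0.165% of all tested probes in this direction. The difference was 1.04 (SE 0.23) with an adjusted p of 0.127. The remaining Per1 probe was detected on 4 arrays, 2 transgenic run and 2 transgenic rest, and was not tested. Over the 24 arrays, with group means removed, the tested Per1 probes correlated at r = 0.85.

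Per2, a period gene whose loss shortens the daily rhythm in mice, read 8.15 to 9.34 (median 8.45) in transgenic run and 8.50 to 9.83 (median 8.84) in transgenic rest muscle with its brighter probe. It read 8.34 to 9.18 (median 8.48) in wild-type run and 8.12 to 8.77 (median 8.51) in wild-type rest muscle. At rest, 5 of 6 transgenic arrays lay above every wild-type array. The second tested probe read 8.01 to 9.46 in transgenic run, 8.34 to 10.0 in transgenic rest, 8.15 to 9.25 in wild-type run and 7.58 to 8.68 in wild-type rest muscle. The genotypes differed at rest by 0.51 (SE 0.21) and, with the second tested probe, by 0.65 (SE 0.28). The remaining Per2 probe was detected on 1 array, in transgenic rest, and was not tested. Per3, a period gene not needed for the rhythm, spread widely: 5.27 to 6.96 in transgenic run, 5.53 to 7.63 in transgenic rest, 5.22 to 7.24 in wild-type run and 5.34 to 7.66 in wild-type rest muscle. All 4 groups overlapped, with medians of 5.70, 6.49, 6.21 and 6.03 in that order. Its probes differed between genotypes at rest by 0.33 (SE 0.46) and 0.28 (SE 0.39).

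Ciart encodes CHRONO, a repressor that binds BMAL1. Its brightest probe read 5.42 to 6.65 (median 6.10) in transgenic run and 6.42 to 7.81 (median 6.99) in transgenic rest muscle. Wild-type run arrays read 5.07 to 6.53 (median 6.32) and wild-type rest arrays 5.47 to 6.69 (median 6.40). At rest 4 of 6 transgenic arrays lay above every wild-type array. The second probe read 5.15 to 6.79 in transgenic run, 6.18 to 7.74 in transgenic rest, 4.91 to 6.67 in wild-type run and 5.30 to 6.49 in wild-type rest muscle. With it, 5 of 6 transgenic rest arrays lay above every other array of all groups. The 3 Ciart probes differed between genotypes at rest by 0.78 (SE 0.28), 1.02 (SE 0.31) and 0.60 (SE 0.26). The dimmest of them was detected on 18 of 24 arrays and ran between 4.76 and 6.72. Bhlhe40, which encodes DEC1, a repressor that competes for E-boxes, read 11.30 to 12.32 (median 11.68) in transgenic run and 11.91 to 12.75 (median 12.13) in transgenic rest muscle. It read 11.76 to 12.38 (median 11.96) in wild-type run and 11.52 to 12.26 (median 11.90) in wild-type rest muscle. The groups overlapped, and the genotypes differed at rest by 0.31 (SE 0.17).

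**Figure D1:**
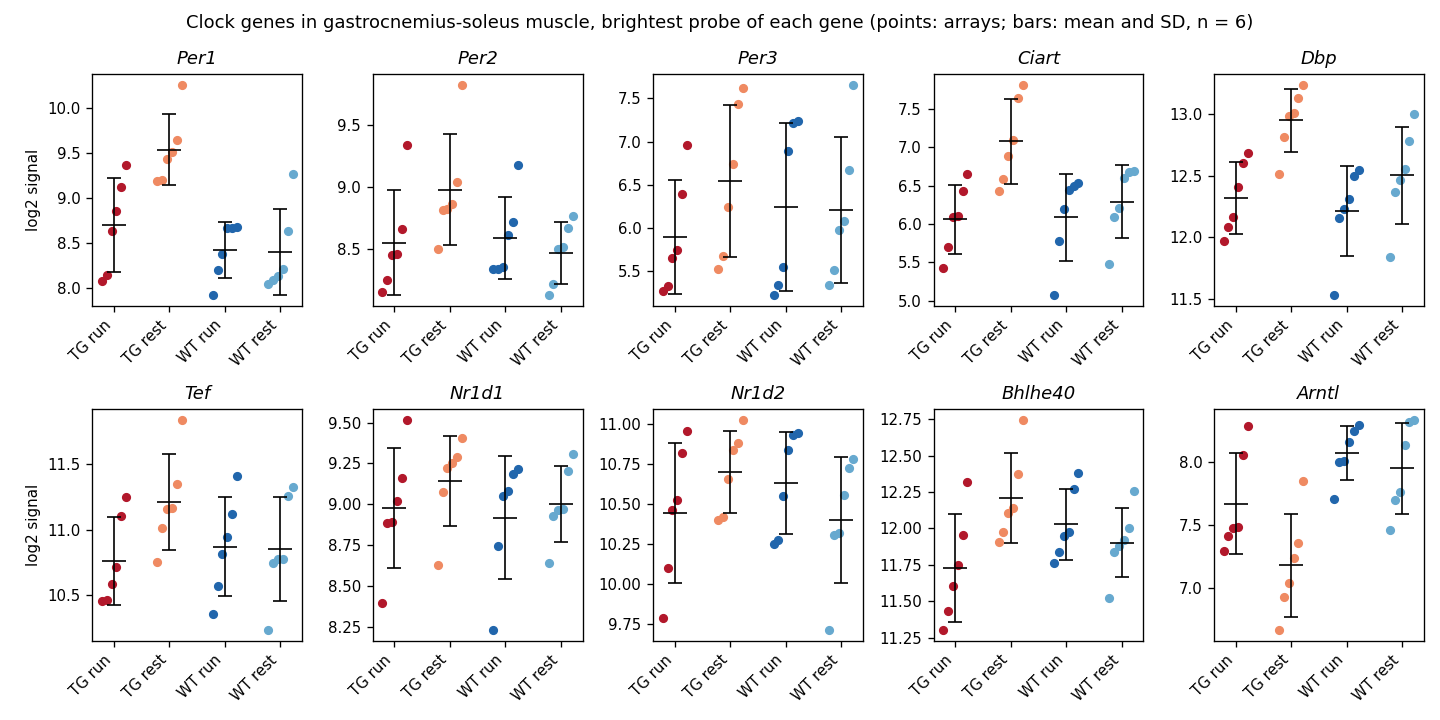
Log2 normalised intensity (vertical axis) of the brightest probe of each clock gene on each array, by group from left to right, with group means and SD (n = 6). Transgenic rest has the highest mean in all genes shown except Arntl, where it has the lowest.

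Dbp and Tef encode PAR bZIP transcription factors that carry the rhythm to output genes. Dbp read 11.97 to 12.69 (median 12.29) in transgenic run and 12.52 to 13.24 (median 13.00) in transgenic rest muscle. It read 11.53 to 12.55 (median 12.27) in wild-type run and 11.84 to 13.00 (median 12.51) in wild-type rest muscle. In the transgenic mice 4 of 6 run arrays lay below every rest array, and at rest 3 of 6 transgenic arrays lay above every wild-type array. The rest difference between genotypes was 0.45 (SE 0.19). Tef read 10.45 to 11.25 in transgenic run, 10.76 to 11.84 in transgenic rest, 10.36 to 11.41 in wild-type run and 10.23 to 11.32 in wild-type rest muscle, and all groups overlapped. Its second probe read 8.35 to 9.02, 8.43 to 9.55, 8.33 to 9.17 and 8.47 to 9.44 in the same groups. Its probes differed between genotypes at rest by 0.36 (SE 0.21) and 0.10 (SE 0.22), and the second of these was -0.0017 when arrays were scaled to a common median.

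Nr1d1 and Nr1d2 encode REV-ERBα and REV-ERBβ, haem-binding nuclear receptors that repress Arntl. Nr1d1 read 8.40 to 9.52 (median 8.96) in transgenic run and 8.63 to 9.40 (median 9.24) in transgenic rest muscle. Wild-type run arrays read 8.23 to 9.22 (median 9.07) and wild-type rest arrays 8.64 to 9.31 (median 8.97). These ranges nearly coincided, and the genotypes differed at rest by 0.14 (SE 0.18). The brighter Nr1d2 probe read 9.78 to 10.95 (median 10.49) in transgenic run, 10.40 to 11.03 (median 10.74) in transgenic rest, 10.25 to 10.94 (median 10.69) in wild-type run and 9.71 to 10.78 (median 10.43) in wild-type rest muscle. Again the groups overlapped. The Nr1d2 probes differed at rest by 0.30 (SE 0.20) and 0.27 (SE 0.21), and they correlated at r = 0.33 over arrays with group means removed.

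Arntl, the positive arm, had 1 probe. It read 7.29 to 8.29 (median 7.48) in transgenic run and 6.67 to 7.85 (median 7.14) in transgenic rest muscle. It read 7.71 to 8.30 (median 8.09) in wild-type run and 7.46 to 8.34 (median 7.95) in wild-type rest muscle. At rest 5 of 6 transgenic arrays lay below every wild-type array, and after the run 4 of 6 did. The rest difference was -0.77 (SE 0.20, 95% interval -1.19 to -0.36), with an adjusted p of 0.367. Arntl and Dbp lie on chromosome 7. Of the 17 probes called between genotypes at rest, 13 had a known chromosome and 11 of these were on chromosome 7, against 7.28% of tested probes. Neither Arntl nor Dbp was among the called probes. Per1 and Ciart, with the largest rest differences above 0, lie on chromosomes 11 and 3. Whether chromosome 7 bears on the clock genes was not tested.

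**Figure D2:**
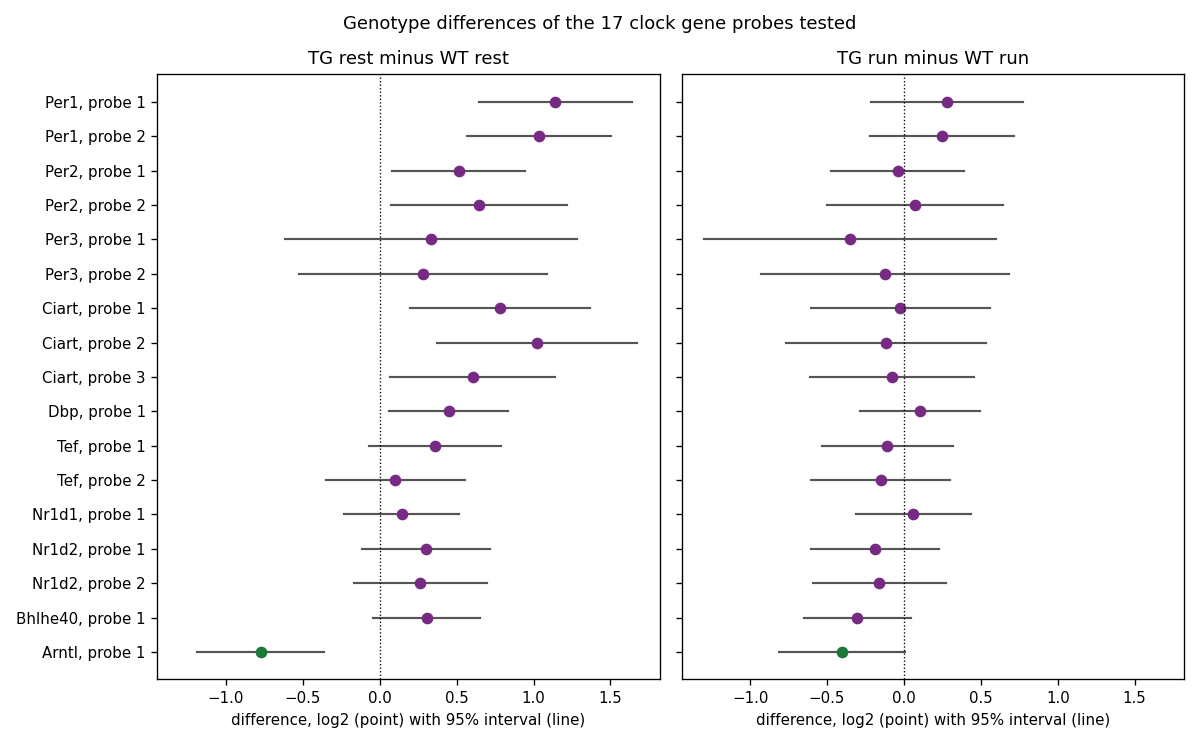
Transgenic minus wild-type difference in log2 intensity (horizontal axis) for each tested clock probe, at rest and after the run, with 95% intervals and a dotted line at 0. At rest 16 of 17 points lie right of 0 and Arntl lies left of it, while after the run 5 of 17 lie right of 0.

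Marker lists of other cells differed between the same groups. At rest 0 of 11 lymphocyte markers, 0 of 8 neutrophil markers and 13 of 13 slow fibre genes averaged higher in transgenic muscle, with medians of -0.64, -0.72 and 0.19 and 0 of them called. With each array's lymphocyte and slow fibre list means in the model, 16 of 17 clock probes averaged above wild-type rest and 10 had an unadjusted p under 0.05. Of all probes, 5.77% did so in that model, against 2.89% without the list means. On the 13 arrays with low lymphocyte means, chosen after seeing the data, the clock counts were 16 and 9, with 3.13% of all probes at an unadjusted p under 0.05. That subset leaves out 4 of 6 transgenic run, 2 of 6 transgenic rest, 2 of 6 wild-type run and 3 of 6 wild-type rest arrays. Both rest groups share replicate numbers 3, 7 and 11, though the labels do not say that a number marks a pair. With the number as a block, 14 clock probes lay above wild-type rest and 5 had an unadjusted p under 0.05, against 2.35% of all probes. The count of all called probes was then 3, and Per1 differed by 1.06 (adjusted p = 0.904). The count of clock probes with an unadjusted p under 0.05 was 9 with all arrays. It was 5 without transgenic rest array 5 and also 5 without wild-type rest array 10.

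Between genotypes after the run, 5 of 17 clock probes averaged higher in transgenic run than in wild-type run muscle, against 48.4% of all probes. The median was -0.11 over the clock probes and -0.0069 over all probes. Per1 differed by 0.28 (SE 0.24), Dbp by 0.11 (SE 0.19), Ciart by -0.023 (SE 0.28) and Arntl by -0.40 (SE 0.20). Limma called 0 of 17 clock probes, against 0.0872% of all probes (19 called, 650 at an unadjusted p under 0.05). At an unadjusted p under 0.05 there were 0 clock probes, against 2.98% of all. The clock count below 0 was 12, and it was 5 once the 2 list means were covariates.

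Run and rest were next compared within the transgenic mice. Of the 17 clock probes, 16 averaged below transgenic rest after the run, and Arntl averaged above it, while 46.0% of all probes averaged above. The median difference was -0.47 over the clock probes and -0.020 over all probes. Limma called 0 clock probes, against 0.00459% of all probes (1 called, 968 at an unadjusted p under 0.05). Without adjustment 8 clock probes lay below rest with a p under 0.05, against 2.50% of all probes, and Arntl lay above, against 1.95%. The 8 probes belonged to 5 genes, Per1, Dbp, Ciart, Tef and Bhlhe40. Run and rest arrays that did not overlap, with run below, were found for 0 clock probes and 0.0275% of all probes.

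By gene, Ciart differed between run and rest in transgenic mice by -1.01 (SE 0.28), -1.24 (SE 0.31) and -0.83 (SE 0.26), and Per1 by -0.84 (SE 0.24) and -0.90 (SE 0.23). The smallest adjusted p among them was 0.791. Dbp differed by -0.63 (SE 0.19), Bhlhe40 by -0.48 (SE 0.17), and Tef by -0.45 (SE 0.21) and -0.44 (SE 0.22). Per2 differed by -0.43 (SE 0.21) and -0.32 (SE 0.28), and Per3 by -0.65 (SE 0.46) and -0.47 (SE 0.39). The REV-ERB genes had the smallest differences, Nr1d1 by -0.17 (SE 0.18) and Nr1d2 by -0.26 (SE 0.20) and -0.28 (SE 0.21). Arntl differed by 0.49 (SE 0.20). The transgenic rest group supplies both this contrast and that between genotypes at rest, so the 2 sets of differences are not independent.

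**Figure D3:**
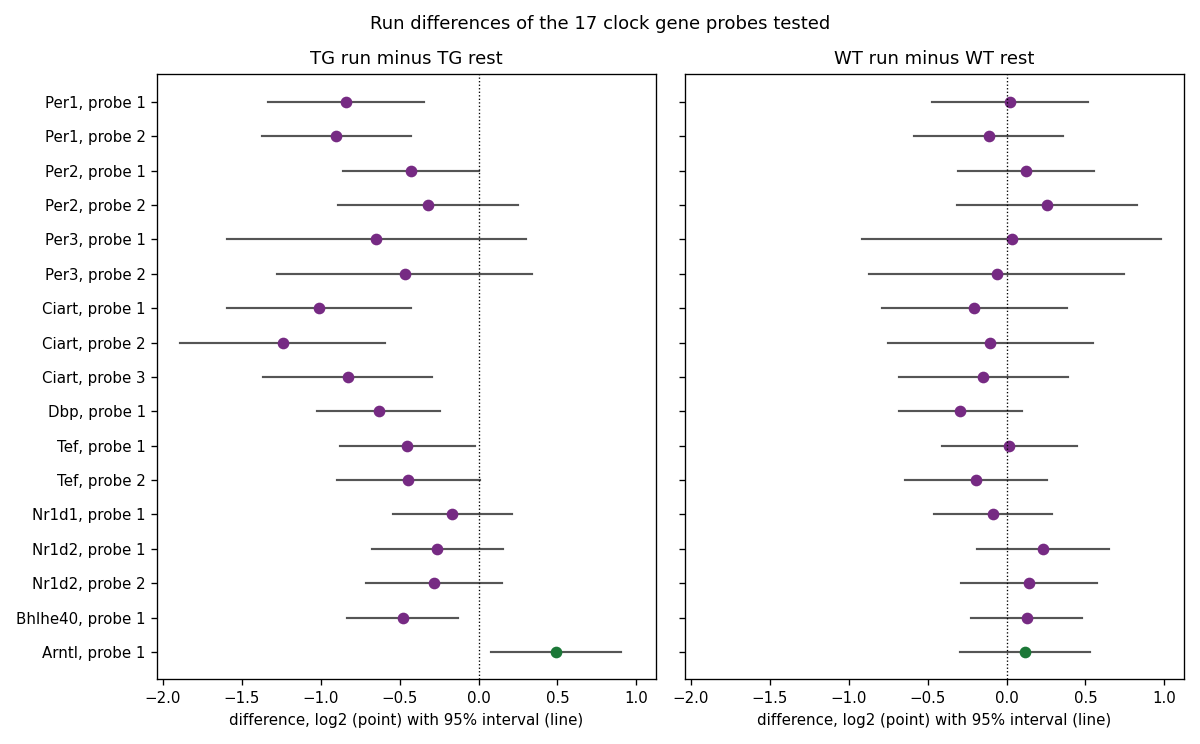
Run minus rest difference in log2 intensity (horizontal axis) for each tested clock probe, in transgenic mice and in wild-type mice, with 95% intervals and a dotted line at 0. In transgenic mice 16 of 17 points lie left of 0, and in wild-type mice 9 of 17 lie right of it.

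Beside these values, 11 of 11 lymphocyte markers (median 1.40) and 8 of 8 neutrophil markers (median 1.42) averaged higher in transgenic run than in transgenic rest muscle, and 12 of 13 slow fibre genes averaged lower (median -0.14). None of them was called. With both means as covariates 16 clock probes lay below rest and 11 had an unadjusted p under 0.05. The share of all probes at that threshold was 10.0% with the covariates and 4.44% without them, where 9 clock probes passed it. On the low-lymphocyte arrays 15 clock probes lay below rest and 7 had an unadjusted p under 0.05, against 2.61% of all probes. This subset lacks 4 of the 6 transgenic run arrays and 2 of the 6 transgenic rest arrays, so few run arrays carry it.

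In wild-type mice the clock probes lay on both sides of rest after the run. Limma called 0 of 17 clock probes and 0 of all 21788 (0%), with 451 at an unadjusted p under 0.05, of which 0 were clock probes against 2.07% of all probes. Above rest lay 9 of 17 clock probes, against 50.4% of all, and the median was 0.016 against 0.0015. With the replicate block, and again with the list means as covariates, 5 clock probes lay above rest and 12 below, against 46.6% and 47% of all probes above. Per1 differed by 0.023 (SE 0.24), Dbp by -0.29 (SE 0.19), Ciart by -0.20 (SE 0.28) and Arntl by 0.12 (SE 0.20). The sign of Per1 turned, to -0.061, under median scaling.

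The difference of the run effect between genotypes tests this contrast directly. It was below 0 for 16 of 17 clock probes (median -0.55), against a median of -0.018 over all probes, of which 47.2% lay above 0. In the same contrast 11 of 11 lymphocyte markers (median 1.77) and 8 of 8 neutrophil markers (median 1.496) lay above 0, and 13 of 13 slow fibre genes below it (median -0.47), with none called. Per1 gave -0.86 (SE 0.34) and -0.79 (SE 0.32), Ciart -0.81 (SE 0.40), -1.14 (SE 0.45) and -0.68 (SE 0.37), and Bhlhe40 -0.61 (SE 0.24). The brighter Per2 probe gave -0.55 (SE 0.30), Dbp -0.34 (SE 0.27) and Arntl 0.37 (SE 0.28). Limma called 0 clock probes and 0 of all probes (0%), with 495 at an unadjusted p under 0.05. The smallest adjusted p of a clock probe was 0.935. Of the clock probes, 4 (of Per1, Ciart and Bhlhe40) had an unadjusted p under 0.05 and lay below 0, against 1.46% of all probes. This count was 7 without transgenic rest array 7 and also 7 without transgenic run array 3. With array weights it was 10, and 18.7% of all probes then had an unadjusted p under 0.05 in either direction, against 2.27% without weights. Under median scaling the median of all probes was 0.10, 65.5% of all probes lay above 0 and 15 clock probes lay below it.

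The transgenic rest mean was the highest of the 4 groups for 16 of 17 clock probes, all but that of Arntl, and for 29.7% of all tested probes. This count restates the contrasts above that share the transgenic rest group. The members were chosen with earlier results of these data known, so their shares beside those of all probes are a description only.

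The run averaged over genotypes joins 2 unlike sets of values. In transgenic mice 1 of 17 clock probes lay above rest (median -0.47), and in wild-type mice 9 of 17 did (median 0.016). Averaged over genotypes, 1 of 17 clock probes, that of Arntl, lay above rest after the run, against 47.6% of all probes. Of the 16 below rest, 6 had an unadjusted p under 0.05, against 1.86% of all probes, and these 6 belonged to 3 genes, Per1, Dbp and Ciart. Arntl had one too, above rest, against 1.93%. On the low-lymphocyte arrays 12 of 17 lay below rest. Per1 differed by -0.41 (SE 0.17) and -0.51 (SE 0.16), Dbp by -0.46 (SE 0.13), Ciart by -0.61 (SE 0.20), -0.67 (SE 0.22) and -0.49 (SE 0.18), and Arntl by 0.30 (SE 0.14). Dbp had the smallest adjusted p, 0.650, and limma called 0 clock probes, against 0.00918% of all probes (2 called, 825 at an unadjusted p under 0.05). With both list means as covariates, 1 clock probe was called, the second Ciart probe at -0.73 (adjusted p = 0.0482). That model called 45 of all probes (0.207%), and 11.2% of all probes had an unadjusted p under 0.05, against 3.79% without the list means.

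Both probes called there belonged to metallothioneins, Mt1 and Mt2, metal-binding proteins that glucocorticoids induce. Mt1 averaged 14.23 in transgenic run, 12.78 in transgenic rest, 14.18 in wild-type run and 12.95 in wild-type rest muscle, and rose by 1.34 (SE 0.15, adjusted p = 0.000215). Mt2 rose by 1.58 (SE 0.23, adjusted p = 0.00681). Neither passed on the low-lymphocyte arrays, where they differed by 1.43 (adjusted p = 0.619) and 1.55 (adjusted p = 0.909). Fkbp5, a glucocorticoid-induced immunophilin, differed by 0.92 and Tsc22d3, which encodes the glucocorticoid-induced leucine zipper, by 0.39, neither called. Of the 7 genes on the glucocorticoid list, Mt1 and Mt2 among them, 6 lay above 0 (median 0.60), against 47.6% of all probes. Both tested Per1 probes lay below 0 in this average. They differed by -0.84 and -0.90 in transgenic mice and by 0.023 and -0.11 in wild-type mice. Whether glucocorticoids acted on any of these genes was not tested.

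Further clock genes stood outside these 10. Of 11 core partners 4 were bright enough: Clock, the partner of BMAL1; Cry2, a cryptochrome repressor; and Rora and Rorb, receptors that compete with the REV-ERBs. None was called in any of the 6 contrasts. In transgenic mice 4 of 4 lay below rest after the run (median -0.19), and in wild-type mice 4 of 4 lay above it (median 0.11). Of all probes, 46.0% and 50.4% lay above rest in these contrasts. In both, 0 of the 4 had an unadjusted p under 0.05. Rorb was dim, with group means of 4.74 to 4.99, and Clock differed by only -0.023 and 0.047. Averaged over genotypes, Clock differed by 0.012, Cry2 by -0.11, Rora by -0.035 and Rorb by 0.054. Of 15 clock modifiers 11 were measured, of which 10 lay above wild-type rest in transgenic rest muscle, against 51.3% of all probes. Their median difference was 0.10. In that contrast 0 of the 11 were called and 0 had an unadjusted p under 0.05. Csnk1e, a kinase that phosphorylates PER, differed by -0.17 (SE 0.080) with the run, the deacetylase gene Sirt1 by 0.15 (SE 0.087), the ubiquitin ligase gene Btrc by -0.16 (SE 0.10) and the deubiquitinase gene Usp2 by -0.11 (SE 0.13). Of 10 clock outputs 7 were measured and 0 were called. With the averaged run Cdkn1a, a cell cycle inhibitor, differed by 0.21 and the transcription factor gene Klf9 by -0.089. Tcap, which encodes a sarcomere protein, differed by -0.069 and Nampt, an enzyme of NAD synthesis, by -0.055. Between genotypes at rest 6 of 7 outputs lay above wild type. The dim Myod1 probe lay below, by -0.79 (SE 0.30), and by -0.77 (SE 0.30) after the run. Klf9 differed at rest by 0.27 (SE 0.12). These Myod1 and Klf9 differences had an unadjusted p under 0.05.

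Whether Arntl varies against the other genes from mouse to mouse was read from deviations from the group means over 24 arrays, in 9 pairs. The permutations shuffled all 24 deviations freely, as if no group means had been removed. Their p-values are therefore somewhat too small. With Dbp, r was -0.43 (permutation p = 0.0351, adjusted over the 9 pairs 0.293) and rho -0.38 (permutation p = 0.0651, adjusted 0.293). Without the 2 arrays farthest from the Arntl median r was -0.34 (permutation p = 0.128). Within the 11 high-lymphocyte arrays r was -0.76 (permutation p = 0.00548, adjusted 0.0493), and within the 13 low-lymphocyte arrays -0.39 (permutation p = 0.182). Within the 10 high and 14 low slow fibre arrays r was -0.59 and -0.53. Other pairs had an adjusted p under 0.05 within a subset too. In every subset the deviations were still those from the full group means, so group differences were not fully removed there. Each adjustment covered only the 9 pairs of 1 subset and 1 statistic, not all subsets and statistics looked at. These subset values are therefore a description. Ciart had a rho of -0.79 in the high-lymphocyte arrays (permutation p = 0.00547, adjusted 0.0246). With the opposite sign, Nr1d1 had r = 0.80 in the high slow fibre arrays (permutation p = 0.00527, adjusted 0.0474). In the low-lymphocyte arrays Nr1d1 and Bhlhe40 had rho of 0.71 and 0.73 (permutation p = 0.00810 and 0.00650, adjusted 0.0365 each). For Ciart r was -0.32, for Per2 -0.25, for Per1 -0.20, for Nr1d1 0.32 and for Bhlhe40 0.35. Nr1d1 had a rho of 0.53 (permutation p = 0.00854, adjusted 0.0769). No pair passed after adjustment over all 24 arrays.

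**Figure D4:**
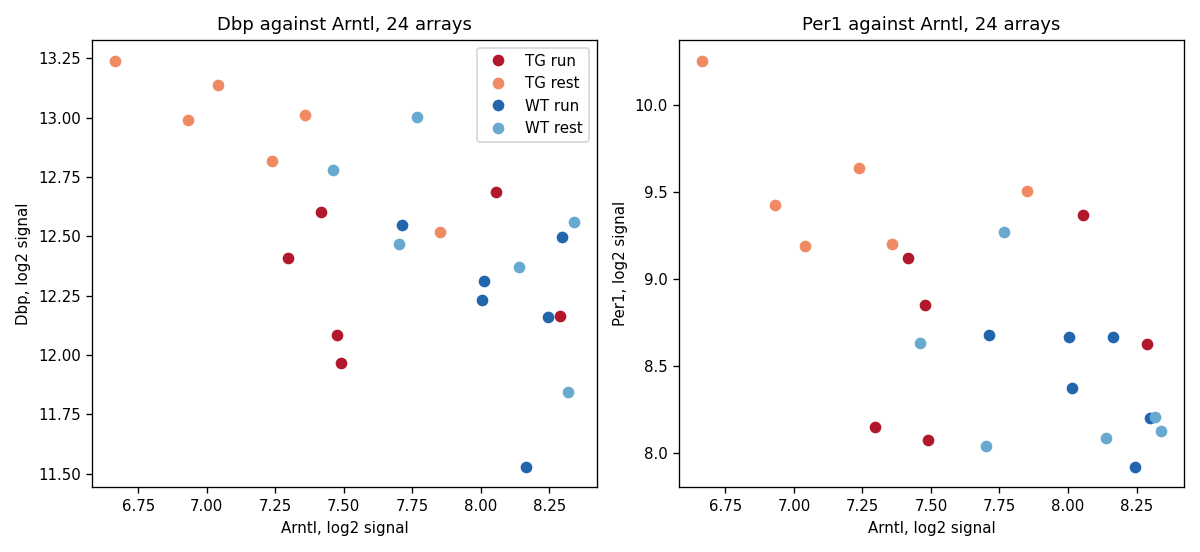
Log2 normalised intensity of Arntl (horizontal axis) against Dbp (left panel) and the brighter Per1 probe (right panel), 1 point per array over 24 arrays, coloured by group, with group means not removed. Transgenic rest arrays hold the 4 lowest Arntl readings, and transgenic rest array 4 lies apart from them at 7.85 for Arntl and 12.52 for Dbp. With group means removed r was -0.43 for Dbp and -0.20 for Per1.

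As a description, the genes whose array-to-array deviations resembled Dbp most over 24 arrays, which share normalisation and tissue makeup, were Crhr2 and Lsmem1 (r = 0.77 each) and Clec2e, Ube2cbp and Ctf1 (0.76 each). Among the clock genes the brightest Ciart probe had r = 0.83 with Dbp. For Arntl they were Xpo7 and Plppr3 (0.65 each), Gfra1 (0.62), and Myof and Timmdc1 (0.61 each).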

How the data were processed

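Biotinylated RNA of 24 muscles was hybridised to Illumina arrays, and arrays were put in groups from their titles. Per the file headers, the authors' deposited table holds 1 intensity per probe and array, without normalisation, and a deposited detection p-value beside it. A second deposited table holds log2 values, made with limma 3.20.8 in R 3.1.1 per the submitters' processing notes. The sources used here name no bead summary software, slide or scan date. Log2 values from the intensities by neqc (limma 3.58.1, R 4.3.3, offset 16) differed from the deposited log2 values by at most 0.0269. Probes detected (p under 0.05) on at least 6 arrays were kept. Probe names came from GEO's platform annotation: 34885 probes had 1 symbol, 18 several and 10378 none.

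A model of 4 group means over 24 arrays was fitted with lmFit and eBayes of limma. Tests were two-sided and a call meant an adjusted p under 0.05 (Benjamini-Hochberg, over 21788 probes). Replicate numbers were tested as pairs by the correlation of deviations from group means. At rest the 3 shared numbers gave 0.321, 0.399 and 0.655, so the blocked fit stands beside that result. Arrays with unlike numbers were not compared, so these values do not show that the arrays were paired. Elsewhere at least 1 of the shared numbers gave 0.1 or less. Array splits were made at the widest gap in a list mean. Correlations used 100000 permutations in scipy. The fit was tested on simulated data.

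The members and gene lists were chosen with earlier results of these data known. The text names every member probe, every called gene of the other clock lists and otherwise the 4 with the smallest p for the averaged run, the 5 probes most like Dbp and Arntl, Itga7, and 5 glucocorticoid-responsive genes. Myod1 is named as well, for its differences between genotypes. Alternatives were other normalisations, filters, weights, covariates and blocks, and each array left out. The low-lymphocyte subset was added after seeing the data.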

Additional observations from a re-analysis of the deposited data

Results flagged for a closer look

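The second Per1 probe read 8.74 on transgenic rest array 5, against 8.06 on the nearest of the other transgenic rest arrays. The gap was 0.675 of that group's whole range, over Dixon's limit for 6 arrays. Of 68 groups of 6 values examined, this was the 1 that passed the limit, and by chance about 1 in 20 would. The same array was the highest of its group for the brighter Per1 probe (10.26), both tested Per2 probes, 2 of 3 Ciart probes and Dbp (13.24), and the lowest for Arntl (6.67).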

How the results depend on the processing

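Of 58 reported differences of clock probes, 51 kept their direction under every alternative. The count of all called probes moved most. For the averaged run it was 45 with lymphocyte and slow fibre covariates (29 higher and 16 lower, 1 clock probe) and 0 on low-lymphocyte arrays, against 2. For the run in wild-type mice it was 2 with array weights, against 0. For the run in transgenic mice it was 0 under median scaling, with only the groups of the contrast, with the replicate block and on low-lymphocyte arrays, against 1. For genotype at rest it was 6 with probes detected on all 24 arrays, 11 with 1 probe per gene, 3 with the replicate block, 30 with covariates and 4 on low-lymphocyte arrays, against 17. For genotype after the run these were 10, 8 with only the groups of the contrast, 3 with the replicate block, 40 with covariates and 3 on low-lymphocyte arrays, against 19. Leaving out single arrays gave 2 to 5, 0 to 1, 0 to 2, 12 to 19 and 9 to 23 called probes in the order above, and 0 to 1 called clock probes at rest. The number of Arntl pairs past the test was 4 with group means not removed, against 0.

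Directions turned as follows. For the run in wild-type mice, Per1 was -0.061 under median scaling, -0.064 with array weights, -0.034 with covariates, -0.21 on low-lymphocyte arrays and -0.048 to 0.20 without single arrays. For the run in transgenic mice, Nr1d1 was 0.13 on low-lymphocyte arrays. At rest, the second Tef probe was -0.0017 under median scaling, -0.083 with the replicate block and -0.0093 to 0.24 without single arrays, and with the block Nr1d1 was -0.047 and Itga7 -0.0089 and -0.018. After the run, Ciart was 0.089 under median scaling, 0.11 with covariates and -0.23 to 0.11 without single arrays, Dbp -0.0026 with the replicate block and -0.031 to 0.18 without single arrays, and Arntl 0.032 on low-lymphocyte arrays. For the averaged run, Clock was -0.079 with the block, -0.013 with covariates and -0.028 to 0.060 without single arrays. Rora was 0.054 with weights, 0.13 on low-lymphocyte arrays and -0.083 to 0.044 without single arrays. Rorb was -0.027 to 0.11 without single arrays, and Nampt 0.12 on low-lymphocyte arrays. The causes were not tested. The number of arrays, 6 per group, limits the precision, and intensities near background compress differences of dim probes.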
